A study of Drosophila melanogaster with 6 samples.

Results

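The 7 genes outside the core clock described here, CG42329, CG34134, CG10513, Cdc6, CG13305, CG10184 and CG15196, were followed across time of day and strain in heads of female Drosophila melanogaster. They were taken as every probe set whose annotation named exactly 1 of these 7 genes, which gave 7 of 11982 genes so named and 8 of the 18769 probe sets tested, with 2 for CG42329 and 1 for each other gene. The genes were selected on the control arrays, where their transcripts were higher at ZT3 than at ZT15, ZT being the hour counted from lights-on. Their control time difference is therefore given as a description with no test. The arrays that played no part in that choice were those of the strain labelled Tim-Fbl, and the question put to them was how much of the morning excess was present there.

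The study hybridised biotin-labelled cRNA from total RNA of female heads, grown at 25 °C, to 6 Affymetrix oligonucleotide arrays. Control flies gave 2 morning arrays (ZT3) and 2 arrays from the early night (ZT15). Tim-Fbl flies, so named in the RNAi field of the labels, had 1 array at each time. The name joins the symbols of the clock gene tim (timeless) and of fumble (fbl), the pantothenate kinase gene, whose product begins the synthesis of coenzyme A. The labels state neither the driver line and its cell types, nor the control genotype, nor the flies' age, nor whether replicates came from separate cultures, so the p-values rest on a spread between arrays that may be technical. With 1 time in the light part and 1 in the dark part of the day, a clock rhythm and a response to light cannot be told apart. In whole heads, fewer cells of a type and less RNA per cell cannot be told apart either.

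Values are RMA signals on a log2 scale as deposited, so a difference of 1 is a 2-fold change. The lower quartile of the arrays lay between 3.99 and 4.16 and the median between 5.46 and 5.51. Levels under about 5 are close to the floor, where RMA compresses differences. On the Tim-Fbl arrays fbl stood at 7.47 and 7.49, against 9.11 to 9.28 on the 4 control arrays. Arrays differed in their control signals. The median of the 12 poly-A spike-in probe sets was 6.76 on the Tim-Fbl ZT15 array and 5.17 to 5.89 on the other arrays. The median 18S rRNA signal was 11.4 to 11.8 on control ZT15 replicate 2 and both Tim-Fbl arrays, and the remaining 3 read 12.3 to 12.7. The part of these differences in the results was not tested. Markers fixed for neurons, photoreceptors, glia and fat body averaged at least 7.82 on every array, as a head sample would hold, whereas 4 ovary and eggshell markers averaged 4.61 to 4.92 and 4 gut markers 4.83 to 5.08.

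In the fly clock, CLK and its partner CYC switch on per, tim and vri towards the evening, and the PER and TIM proteins later shut that activity off. The VRI protein represses Clk itself, so that Clk and the blue-light receptor gene cry run in the opposite phase and are high in the morning. Head transcripts that share this morning phase come from several tissues, including eye, fat body and oenocytes, and many encode metabolic enzymes. Of the 7 genes, Cdc6 encodes a factor that helps load the replicative helicase onto origins of replication. CG10513 belongs to the family of ecdysteroid kinase-like proteins, which lies in tandem clusters in the fly genome. CG10184 is a threonine aldolase relative that the RefSeq gene table lists with the synonym HTMLA. For CG42329, CG34134, CG13305 and CG15196 no role is given here. By that table CG42329 and CG34134 lie on chromosome arm 2L, Cdc6 and CG13305 on 3L, CG10513 and CG10184 on 3R, and CG15196 on X.

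CG34134 was higher at ZT3 in both strains. It stood at 10.65 and 10.35 on the control ZT3 arrays and at 8.17 and 8.34 on the control ZT15 arrays. On the Tim-Fbl arrays it was 10.41 at ZT3 and 8.74 at ZT15. The Tim-Fbl ZT3 value lay between both control ZT3 values, and the Tim-Fbl ZT15 value lay 0.40 above the higher control ZT15 array. CG34134 was 4.74-fold higher at ZT3 in controls and 3.19-fold higher in Tim-Fbl.

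CG13305 was almost equal on the control replicates, at 8.52 and 8.51 at ZT3 and at 6.55 and 6.69 at ZT15. In Tim-Fbl it was 8.04 at ZT3 and 6.40 at ZT15, below the control arrays at each time. Its log2 difference, ZT15 minus ZT3, was -1.90 in controls and -1.64 in Tim-Fbl.

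Cdc6 stood at 6.22 and 6.63 on the control ZT3 arrays, at 4.49 and 4.36 on the control ZT15 arrays, and in Tim-Fbl it was 5.98 at ZT3 and 4.33 at ZT15. All 3 night values were under 5, so its differences of -2.00 in controls and -1.65 in Tim-Fbl may be too small. CG15196 was also near the floor, at 4.91 and 5.50 on the control ZT3 arrays and at 3.36 and 3.76 at ZT15. In Tim-Fbl CG15196 was 4.77 and 3.55, with no array of the strain above 5. Both transcripts had the same order of times in each strain.

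**Figure D1:**
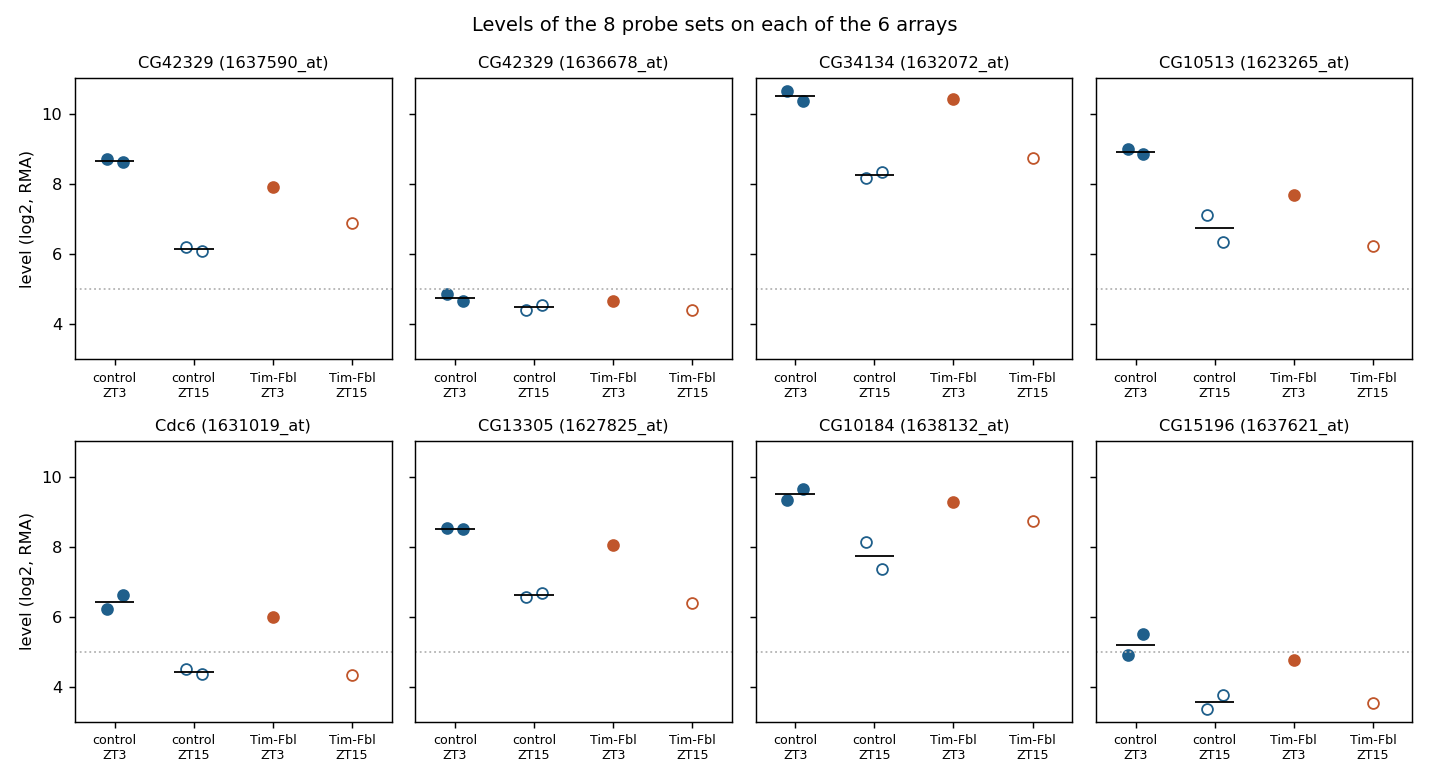
Level (log2, RMA) of each of the 8 probe sets on the 6 arrays, 1 panel per probe set. Each point is 1 array (blue, control; orange, Tim-Fbl; filled, ZT3; open, ZT15), black lines are the means of 2 control arrays, and the dotted line marks a level of 5. In every panel the Tim-Fbl ZT3 point lies above the Tim-Fbl ZT15 point, by the least for the dim CG42329 probe set, and in every panel that distance is smaller than the one between the control means.

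CG10513 had the largest gap between strains in the morning. It stood at 8.99 and 8.86 on the control ZT3 arrays but at 7.68 on the Tim-Fbl ZT3 array, which is 1.18 below the lower of the 2. At ZT15 it was 7.11 and 6.35 in controls and 6.24 in Tim-Fbl. The control ZT15 arrays disagreed by more than the arrays at ZT3, and the time difference was -2.20 in controls and -1.44 in Tim-Fbl.

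CG42329 and CG10184 had the smallest time differences in Tim-Fbl relative to those in controls, the dim CG42329 probe set aside. The brighter CG42329 probe set read 8.70 and 8.62 at ZT3 and 6.19 and 6.08 at ZT15 in controls, against 7.92 and 6.88 in Tim-Fbl. Its Tim-Fbl values lay between the control times, 0.70 below the lower ZT3 array and 0.68 above the higher ZT15 array. The differences were -2.52 in controls, the largest of the set, and -1.04 in Tim-Fbl. The second CG42329 probe set was dim on every array, at 4.41 to 4.86, and its differences were -0.28 in controls and -0.24 in Tim-Fbl. The pair of CG42329 probe sets therefore disagree on the size of the time difference, and the dim one is near the floor.

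CG10184 read 9.34 and 9.66 on the control ZT3 arrays and 8.12 and 7.37 on the control ZT15 arrays. In Tim-Fbl it was 9.28 at ZT3, close to the controls, and 8.74 at ZT15, which is 0.62 above the higher control array. The time difference was -1.76 in controls and -0.54 in Tim-Fbl.

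Across the 8 probe sets all control ZT3 arrays lay above all control ZT15 arrays, as 25.6% of all probe sets did, and 0.389% of all probe sets passed a limma adjusted p of 0.05 as lower at ZT15. That separation follows from how the genes were picked, and nothing is read from it. CG15196, with the smallest control difference once the dim CG42329 probe set is set aside (-1.64), lay just inside the choice. Outside it by size came Hr38 (-1.51), which encodes an activity-regulated nuclear receptor, Def (-1.49), which encodes the antimicrobial peptide defensin, and Jhbp15 (-1.42). Differences as large as those of the 7 genes were also seen for Ugt35B1 (-2.06), CG7214 (-1.90), Jhe (-1.85) and Scp1 (-1.73). On the control ZT3 arrays CG7214 read 7.74 and 8.83, Jhe 7.26 and 6.21, and Scp1 9.82 and 12.29, so their replicates disagreed by 1 or more.

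Within Tim-Fbl all 8 probe sets were lower at ZT15, as were 52.8% of all probe sets, and 6 of the 8 were lower by at least 1 on the log2 scale, as were 27 of 18769 or 0.144%. Tested with limma, which takes the spread from the control pairs and assumes that the single Tim-Fbl arrays vary like them, 2 of the 8 fell past an adjusted p of 0.05, against 0.0533% of all probe sets. These were CG13305 (-1.64 ± 0.13 SE, adjusted p = 0.0168) and CG34134 (-1.67 ± 0.18, adjusted p = 0.0303). Cdc6 differed by -1.65 ± 0.21 (limma adjusted p = 0.0589) and the brighter CG42329 probe set by -1.04 ± 0.13 (adjusted p = 0.0614), which did not pass. CG10513 (-1.44 ± 0.32, limma adjusted p = 0.366) and CG15196 (-1.22 ± 0.30, adjusted p = 0.439) did not pass either, although 6 of the 8 had an unadjusted p under 0.05, as 2.79% of all probe sets did in this direction. The 95% confidence intervals of CG10513 and CG15196 were -2.21 to -0.68 and -1.94 to -0.51. For CG10184 the interval was -1.34 to 0.26 (difference -0.54 ± 0.34, limma adjusted p = 0.885), and for the dim CG42329 probe set the adjusted p was 0.895.

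The calls of CG13305 and CG34134 were lost when probe sets under a mean log2 of 5 were left out (limma adjusted p = 0.065 and 0.082), and that of CG34134 after quantile normalization (0.0561), with the differences hardly moved. The control spread that sets the error also entered the choice of the genes. With 1 common variance for all probe sets, an alternative added after seeing the data, 6 of the 8 passed. That variance sets aside the wide control spread of CG10513 (SD 0.54 at ZT15) and CG15196 (SD 0.42 at ZT3). Their passing rests on that assumption.

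Expressed as a share of the control difference, Tim-Fbl held 86.3% for CG13305, 82.5% for Cdc6, 74.6% for CG34134, 74.5% for CG15196, 65.7% for CG10513, 41.3% for CG42329 and 30.5% for CG10184. The shares of Cdc6 and CG15196 are ratios of differences whose night values lay near the floor in both strains, so their place in this order is uncertain. The night values were 4.33 to 4.50 for Cdc6 and lower, 3.36 to 3.76, for CG15196. Genes chosen for a large control difference tend to show a smaller one in any other samples, so a share below the whole is not by itself a change. The difference of the time effects between strains, Tim-Fbl minus control, was 1.48 for CG42329 and 1.22 for CG10184, and it was 0.26 to 0.75 for the other 5 genes. As it contains the control contrast that picked the genes, it was not tested.

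**Figure D2:**
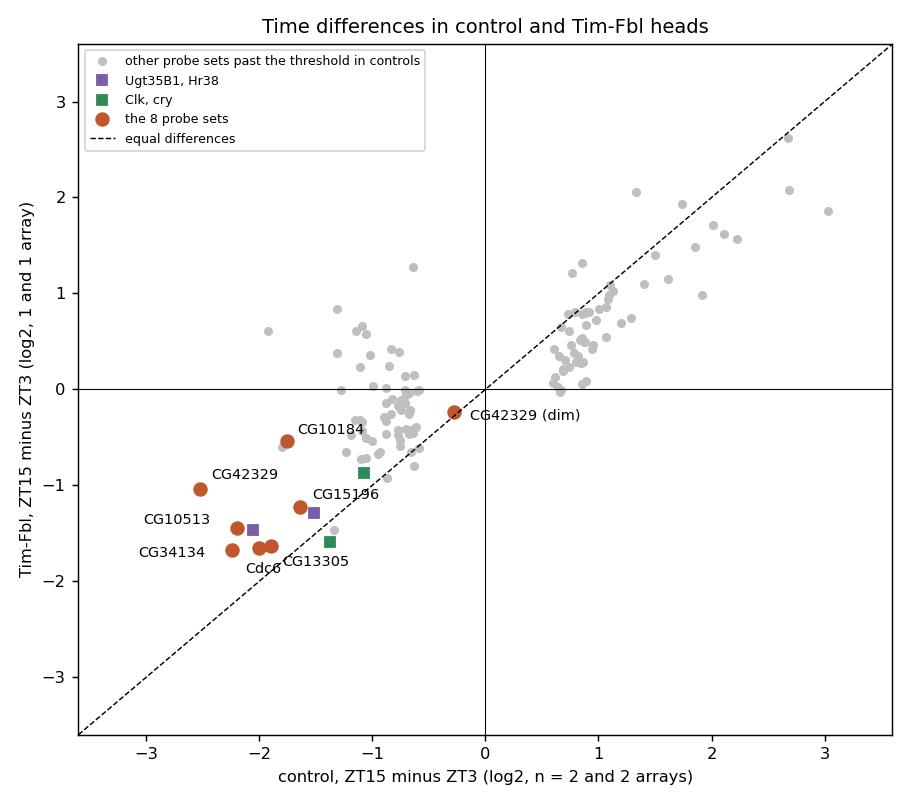
Difference ZT15 minus ZT3 (log2) in Tim-Fbl, from 1 array per time, against the same difference in controls, from 2 arrays per time. Orange points are the 8 probe sets, squares are Ugt35B1 and Hr38 (purple) and Clk and cry (green), grey points are the other probe sets past an adjusted p of 0.05 in controls, and the dashed line marks equal differences. With the dim CG42329 probe set aside, CG13305 and Cdc6 lie nearest to the dashed line, and CG42329 and CG10184 farthest above it.

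The other transcripts that were lower at ZT15 in controls give a scale for these shares. Besides the brightest probe set of each of the 7 genes, 66 passed in that direction in controls, and 50 of them were also lower at ZT15 in Tim-Fbl. Their median share of the control difference was 31.8%, and 25 of the 66 held at least 50%, as the brightest probe sets of 5 of the 7 genes did. The 59 probe sets higher at ZT15 in controls had a median share of 69.4% in Tim-Fbl, and 57 of them kept the direction. The 66 had smaller control differences, with a median of -0.87 against -1.95 for the 8 probe sets. The sets are therefore not matched, and no test was made between them. Those of the 66 that were lower by at least 1 in controls, 25 in number, had a median control difference of -1.14 and a median share of 33.3%. Of these, 17 kept the direction and 9 held at least 50%. The 22 probe sets higher by at least 1 in controls had a median share of 80.2%, and all 22 kept the direction. The limma test between times in Tim-Fbl, which 2 of the 8 passed, was passed in the control direction by 4 of the 66. Among the 25 with the larger differences 4 passed. Of the 59 night-high probe sets 10 passed, and 9 of the 22 did.

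Transcripts with a morning phase that are not among the 7 were set beside them. Clk was 7.57 and 7.37 at ZT3 and 6.16 and 6.04 at ZT15 in controls, and 7.71 and 6.11 in Tim-Fbl, where it fell by 1.60 (limma adjusted p = 0.0299). The transcript of cry differed by -0.87 ± 0.18 in Tim-Fbl and did not pass (limma adjusted p = 0.29). Ugt35B1, a UDP-glycosyltransferase gene, fell by 1.46 in Tim-Fbl (limma adjusted p = 0.026), with 9.86 at ZT3 and 8.39 at ZT15. Hr38 fell by 1.29 (adjusted p = 0.03), from 7.45 to 6.15. These 4 had control differences of -1.07 to -2.06. The other genes named above for the size of their control difference varied in Tim-Fbl. Jhbp15 differed there by -1.23 and Jhe by -0.60, while CG7214, Def and Scp1 differed by 1.26, 0.52 and 0.18, the opposite direction to controls. None of these passed the limma test in Tim-Fbl.

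Averaged over both times, none of the 8 probe sets passed the limma test of Tim-Fbl against control, in which 8.79% of all probe sets passed (3.35% lower and 5.44% higher in Tim-Fbl), while 2 were lower with an unadjusted p under 0.05, as 14.3% of all probe sets were. These were CG10513, lower by -0.86 ± 0.23 (SE, limma adjusted p = 0.0614), and CG13305, lower by -0.35 ± 0.090 (adjusted p = 0.0553). CG13305 passed in other settings, among them quantile normalization (-0.47, limma adjusted p = 0.0316). The strain difference of CG10513 was -1.08 without control ZT15 replicate 2 and -0.76 without control ZT15 replicate 1. The 95% confidence intervals reached from -0.14 to 0.54 for CG34134, from -0.59 to 0.04 for Cdc6, from -0.31 to 1.08 for CG10184 and from -0.67 to 0.22 for CG15196. The mean over times hides opposite differences in CG42329, which in Tim-Fbl was 0.74 lower than the control mean at ZT3 and 0.74 higher at ZT15. Without the Tim-Fbl ZT3 array its strain difference was 0.74, and without the Tim-Fbl ZT15 array it was -0.74. Each sets 1 array against control values that entered the choice of the gene, so no test is given. At ZT3 the Tim-Fbl array lay below both control arrays for 6 of the 7 genes, CG34134 being the exception. The share of all probe sets with that order was not counted. Genes picked for high control ZT3 values also tend to read lower on another array, so nothing is read from this count. Some markers of other tissues also differed between strains. In Tim-Fbl 1 of 2 muscle markers rose (Act88F, by 1.31, while up differed by 0.13 and did not pass) and 1 of 3 blood cell markers rose (Hml, by 0.71). Further, 1 of 4 ovary and eggshell markers (Cp15, -0.38) and 1 of 4 gut markers (Mal-A1, -0.41) were lower. Mean levels on the Tim-Fbl and control arrays were 8.63 to 8.95 and 8.03 to 8.11 for muscle and 10.67 to 10.79 and 10.05 to 10.49 for blood cells. The part of these markers in the strain differences was not tested. At ZT15 the Tim-Fbl array lay above both control arrays for CG42329, CG34134 and CG10184 and below both for CG10513, Cdc6 and CG13305. The share of all probe sets with either order was not counted, and the control ZT15 values entered the choice of the genes. Nothing is therefore read from this split.

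Cdc6 was set against 22 measured genes of replication licensing and S phase, of 30 listed. In controls 2 of the 22 fell at ZT15, none rose and 20 did not pass, with 0.703% of all probe sets called in either direction. PCNA, the sliding clamp of the replication fork, fell by 0.88 (limma adjusted p = 0.0261), and RnrL, the large subunit of ribonucleotide reductase, fell by 0.71 (adjusted p = 0.0465). Ts (thymidylate synthase), Mcm5, a helicase subunit, and Orc1, an origin recognition subunit, differed by -0.77, -0.62 and -0.61 without passing. The list's median difference was -0.11 in controls, against -0.01 for all probe sets.

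In Tim-Fbl none of the 22 passed the limma test between times, nor the test between strains, where 0.165% and 8.79% of all probe sets passed. At the first of these rates 22 probe sets would rarely hold a call. PCNA read 6.37 at ZT3 and 6.38 at ZT15 in Tim-Fbl, against 7.43 and 7.42 at ZT3 and 6.66 and 6.43 at ZT15 in controls. Both Tim-Fbl values of PCNA were below every control array. Among the other licensing genes dup, which encodes the helicase loader Cdt1, had the largest moderated statistic in Tim-Fbl, with a difference of 0.62 ± 0.16 that did not pass. A difference between strains in the time effect was not called for PCNA (0.89, limma adjusted p = 0.627) or RnrL (0.57, adjusted p = 0.842).

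CG10184 was set against 12 genes of glycine, serine and threonine metabolism, all of them measured. All 12 were lower at ZT15 in controls, as were 51.5% of all probe sets, with a median of -0.56. Only 1 of the 12 passed, against 0.389% of all probe sets called lower in controls: CG3999, which encodes the glycine-decarboxylating subunit of the glycine cleavage system, fell by 1.27 (limma adjusted p = 0.00538). Its levels were 9.64 and 9.85 at ZT3 and 8.51 and 8.44 at ZT15 in controls, and 9.24 on each Tim-Fbl array. Shmt (serine hydroxymethyltransferase), aay (phosphoserine phosphatase) and CG6415, another subunit of the cleavage system, differed by -0.55, -0.74 and -0.57 in controls without passing.

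In Tim-Fbl the median time difference of the 12 was -0.04 and none passed. CG3999 differed by -0.003 ± 0.15, and the test of its time effect between strains did not pass (1.27, limma adjusted p = 0.265). Between strains Srr (serine racemase) was lower in Tim-Fbl by -0.90 ± 0.19 (limma adjusted p = 0.0309), and the other 11 did not pass. A single call among 12 is close to the 8.79% called among all probe sets.

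**Figure D3:**
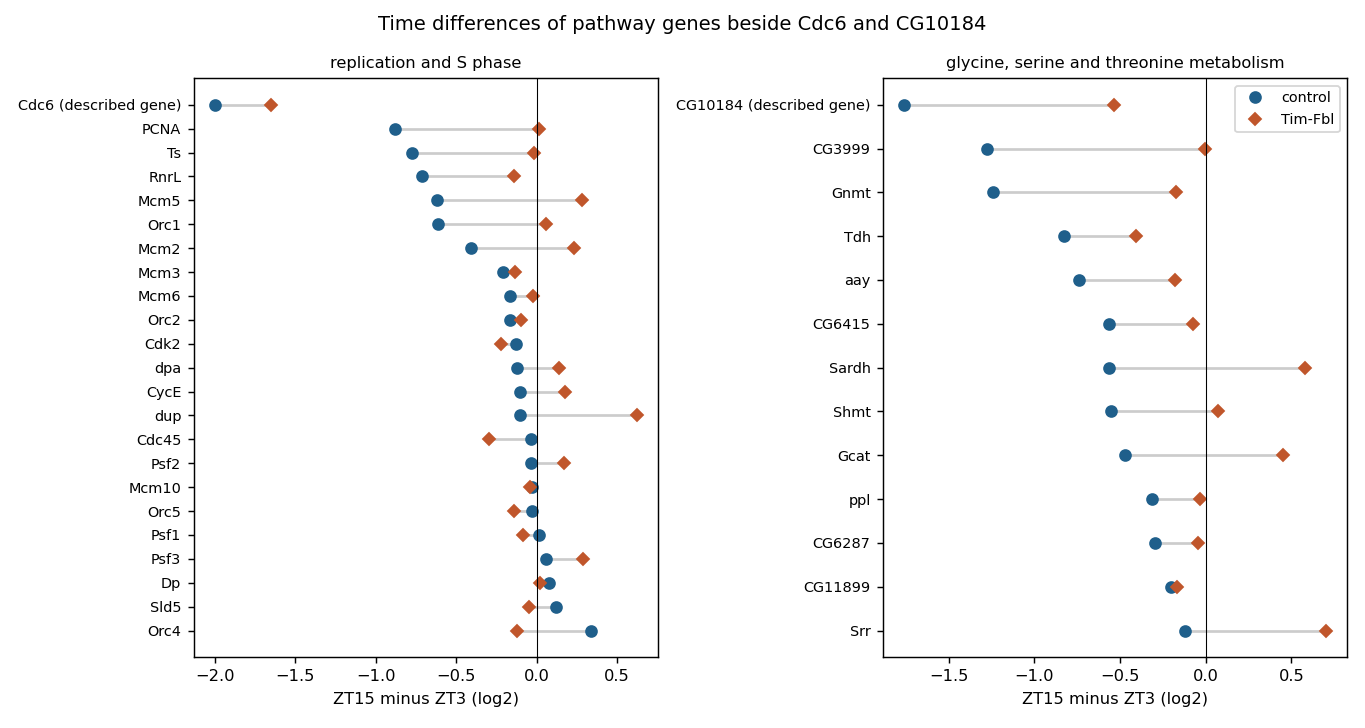
Difference ZT15 minus ZT3 (log2) in controls (blue circles, 2 arrays per time) and in Tim-Fbl (orange diamonds, 1 array per time) for Cdc6 with 22 replication and S phase genes and for CG10184 with 12 genes of glycine, serine and threonine metabolism. Cdc6 lies far to the left of its list in both strains, at -2.00 and -1.65, while the control points of CG10184 and CG3999, at -1.76 and -1.27, lie left of their Tim-Fbl points at -0.54 and -0.003. The control positions of Cdc6 and CG10184 follow from how these genes were picked.

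Gene neighbourhood was read from the RefSeq gene table, taking the 2 nearest measured genes on each side. Cdc6 and CG13305 are neighbours, with Cpr66D, a cuticle protein gene, between them, and by this table Cdc6 lies within the span of Zasp66, a muscle Z-disc protein gene. Zasp66 differed by -0.02 ± 0.10 in controls and -0.10 ± 0.14 in Tim-Fbl, and Cpr66D by -0.56 ± 0.23 and -0.30 ± 0.33, none of which passed. On the other side of CG13305, Pex7 and the photoreceptor arrestin gene Arr2 differed by 0.01 and 0.06 in controls. GAPsec, beyond Zasp66, fell by 0.88 in controls (limma adjusted p = 0.0178) and differed by -0.33 ± 0.13 in Tim-Fbl. None of these genes around Cdc6 and CG13305 had a time difference as large as theirs in either strain. In controls that order follows from how Cdc6 and CG13305 were picked, and nothing is read from it there.

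CG10513 sits in a cluster with other genes of its family. CG10514, next to it, was lower in Tim-Fbl by -0.77 ± 0.11 (limma adjusted p = 0.00945), reading 6.94 to 7.62 on the control arrays and 6.83 and 6.37 on the Tim-Fbl arrays. CG11892, the next gene, was lower by -1.17 ± 0.13 (adjusted p = 0.00337), with 6.11 to 6.65 in controls and 5.18 and 5.32 in Tim-Fbl. Neither passed between times in either strain. On the other side CG11878 and CG11891 were dim, with mean levels of 3.61 and 3.87. The probe sets of such related genes may share signal, and that of CG11892 carries the manufacturer's suffix for shared sequence.

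**Figure D4:**
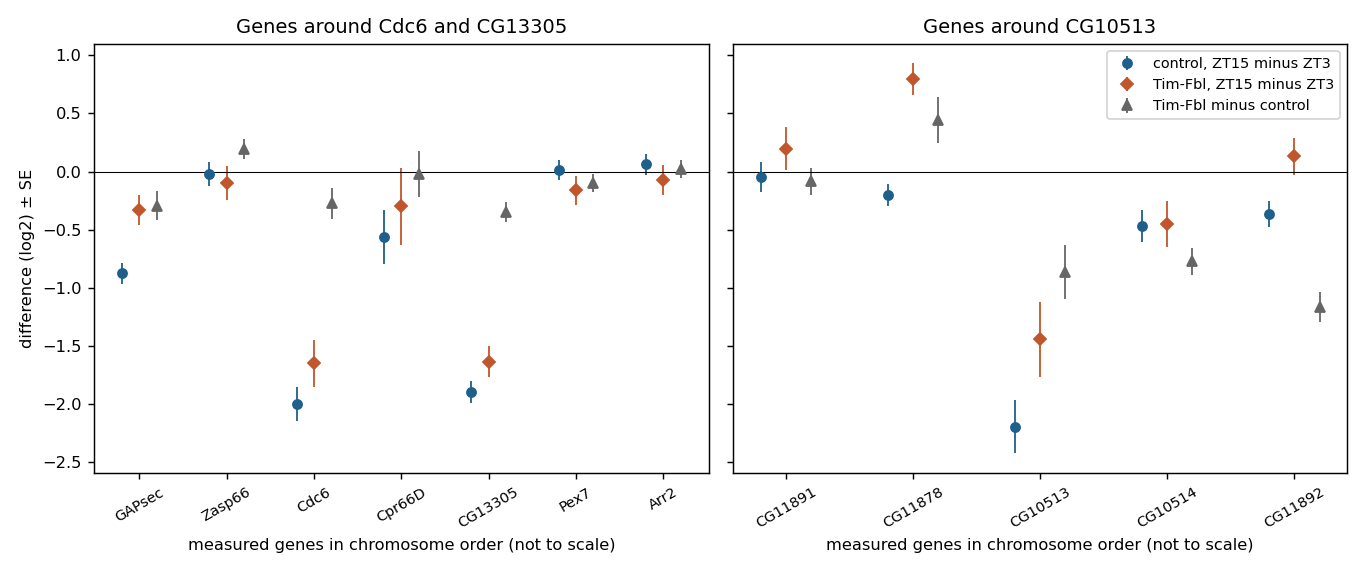
Log2 differences (± SE from limma) of the measured genes around Cdc6 and CG13305 and around CG10513, in chromosome order and not to scale. Blue circles are controls and orange diamonds Tim-Fbl, each ZT15 minus ZT3, and grey triangles are Tim-Fbl minus control over both times. Cdc6 and CG13305 stand at -2.00 and -1.90 in controls with Cpr66D at -0.56 between them, and the grey triangles of CG10513, CG10514 and CG11892 lie at -0.86, -0.77 and -1.17.

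Over all 7 loci, 25 neighbouring genes that are not among the 7 were measured, 10 of them with a mean level under 5. Between times in controls 1 of the 25 passed (GAPsec), where 0.703% of all probe sets passed in either direction. None passed in Tim-Fbl, where 0.165% of all probe sets passed. Between strains 4 of the 25 passed, where 8.79% of all probe sets passed. Besides CG10514 and CG11892, these were CG5397, next to CG42329, which rose by 1.02 (limma adjusted p = 0.00297), and a5, the gene after it, which was lower by -0.33 (adjusted p = 0.0422) near the floor. CG8475, which follows CG34134 and whose symbol the table also lists as a synonym of CG34134, read 9.19 to 9.56 on the 6 arrays and differed between times by -0.08 in controls and -0.09 in Tim-Fbl. A difference of the size measured for CG34134 was not seen in that adjacent probe set.

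Likeness of pattern was measured as Pearson's r over the 6 arrays, among 716 probe sets that had 1 symbol, averaged 5 or more and ranged over at least 1 log2 unit, and it is given as a description since the arrays share both time and strain. CG13305 was the nearest to Cdc6 (r = 0.987), and FarO, a fatty acyl-CoA reductase gene, came second for Cdc6 (0.98) and for CG13305 (0.981). FarO differed by -1.34 in controls and -1.46 in Tim-Fbl. For CG15196 the nearest were Cdc6 (0.977) and CG13305 (0.967), followed by Jhbp15 (0.957). CG34134 was nearest to Ugt35B1 (0.997), Ugt49C1 (0.98) and Clk (0.975).

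The brighter CG42329 probe set was nearest to Ugt49C1 (r = 0.982), Ugt35B1 (0.979) and Mocs1 (0.973), a gene of molybdenum cofactor synthesis. For its dim probe set they were Jhe (0.938), Fmo-2 (0.912) and Obp8a (0.906). CG10513 was nearest to CG8170 (0.992), Fmo-2 (0.982), a flavin-containing monooxygenase gene, and CG5849 (0.976). CG10184 was nearest to aay (0.948) and CG3999 (0.944), both from the glycine, serine and threonine list, and to Acsx3 (0.941). In Tim-Fbl the time difference was -0.54 for CG10184, -0.18 for aay, -0.003 for CG3999 and -0.73 for Acsx3. Of the genes named as nearest, Ugt49C1 came up for CG42329, CG34134 and Cdc6.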

How the data were processed

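The authors deposited log2 values made with RMA, per the submitters' processing notes; the sources used here do not give its version. That the scale is log2 was inferred from the deposited values. The number of arrays limits the precision. Of 18952 probe sets 183 manufacturer's controls were left out. The annotation gave 1 symbol to 13647 of the rest, and the 7 genes matched the RefSeq gene table (Release 6 plus ISO1 MT), used for names and gene order only.

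Each probe set was fitted with limma 3.58.1 (R 4.3.3), with Benjamini-Hochberg adjustment over 18769 and a threshold of 0.05. Time differences came from 4 group means (2 residual degrees of freedom), strain from an additive model with time (3 residual degrees of freedom). Functions were tested on simulated arrays. Genes, lists and tests were chosen with earlier results of these data known. From lists and neighbours, genes past a test and up to 4 others by moderated statistic are named, each gene by its brightest probe set. Alternatives covered filters, normalizations, variance models, the replicate number as a block and left-out arrays. Planned protein relatives and promoter motifs were not analysed here. Figures used matplotlib 3.10.9.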

Additional observations from a re-analysis of the deposited data

Results flagged for a closer look

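The median of the 12 poly-A spike-in probe sets, which measure RNA added during labelling and enter no comparison above, was 6.76 on the Tim-Fbl ZT15 array, higher than on any control array (mean 5.43 ± 0.312, SD, n = 4). Every time difference within Tim-Fbl rests on this array, and no second Tim-Fbl ZT15 array was analysed here. Its part in those differences was not tested.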

How the results depend on the processing

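The difference between times within Tim-Fbl could move only with the normalization, and it stayed below 0 for the 8 probe sets under quantile normalization, cyclic loess and median subtraction. Between times in Tim-Fbl, 31 probe sets passed, 2 of them from the 8 described. These counts were 44 and 4 with robust variances, 15 and 1 after quantile normalization, 2 and 0 when only means of at least 5 were kept, 0 and 0 at a minimum of 7, and 85 and 6 with 1 common variance. With the replicate number of the control arrays as a block they were 71 and 6, although replicate 1 arrays hardly deviated together (r = 0.0381 over probe sets). Leaving out control arrays in turn gave 23 to 62 and 3 to 5. Between strains 1650 passed and 0 of the 8. The latter became 1 with robust variances, quantile normalization, cyclic loess or either filter and 2 in the fit of 4 group means; left-out arrays gave 395 to 1255 and 0 to 1. The strain split of 1021 higher and 629 lower became 1239 and 477 after median subtraction. In controls 132 passed between times, 214 with robust variances, 83 and 75 with the filters at 5 and 7, 334 with the replicate block and 27 to 340 with left-out arrays. The sign of the strain difference, which none of the 8 passed, turned for the dim CG42329 probe set after quantile normalization (0.0078) and cyclic loess (0.0033), for the brighter one after median subtraction (0.032) and without control ZT3 replicate 1 (0.12), replicate 2 (0.09) or the Tim-Fbl ZT3 array (0.74, against -0.74 without the Tim-Fbl ZT15 array). Without the Tim-Fbl ZT15 or ZT3 array the strain difference was -0.086 or 0.48 for CG34134 and -0.22 or 1.00 for CG10184. The causes were not tested. With 1 Tim-Fbl array per time, no left-out array can check a time difference within that strain.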

Other observations

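Among probe sets with 1 symbol, CG33474 and CG11825, named after their values were seen, fell further between ZT3 and ZT15 in Tim-Fbl than any of the 7 genes and passed the limma test. CG33474 read 7.19 at ZT3 and 4.32 at ZT15 in Tim-Fbl, against 3.99 to 4.35 on the 4 control arrays, so the Tim-Fbl ZT3 array alone was high. Its difference was -2.87 (limma adjusted p = 0.01) in Tim-Fbl and -0.14 in controls. CG11825 read 9.50 and 7.09 in Tim-Fbl and 6.29 to 6.85 in controls, with differences of -2.41 (limma adjusted p = 0.0403) and -0.10. The size of each rests on 1 array per time.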
